A study of Homo sapiens with 48 samples.

Results

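Angiotensin receptors and the genes that make, convert and bind angiotensin peptides were examined in a clone of the HEK293 line, which was derived from human embryonic kidney. The clone stably expressed AT1R, the angiotensin II (AII) receptor of type 1. The members were chosen by symbol: AGTR1, AGTR2, AGTRAP, AGT, ACE, ATP6AP2, LNPEP and MAS1, that is 8 of the 60610 genes in the count table. All groups shared the same cells, which had been cotransfected with the AT1R plasmid and pBABEpuro, selected in puromycin and losartan and cloned by limiting dilution, so that every library came from 1 clone that carries AGTR1 as a transgene. Serum-free DMEM replaced the growth medium before the stimuli. The groups were control without stimulus, AII at 1 nM, EGF at 10 µg/L and AII + EGF at the same doses, and each was harvested after 6 h and after 24 h. Poly(A) RNA was sequenced and fragments were counted per gene.

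AII is cut out of the liver protein angiotensinogen by renin and then by angiotensin-converting enzyme. It acts on AT1R, a receptor that couples to Gq proteins and is turned off by kinases and arrestins, and on the type 2 receptor, which often opposes AT1R. Cells take AT1R in after stimulation, and AGTRAP is a membrane protein that binds the tail of AT1R and promotes this step. In the kidney the system controls salt reabsorption, vessel tone and growth, and EGF receptor signalling is one of the routes by which AT1R acts on growth.

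The labels give 6 libraries to each group, and 38 of the 48 libraries entered the comparisons. When all 1128 pairs were compared, 4 agreed more closely than sampling noise allows, with a chi-square per degree of freedom from 0.397 to 0.505, against 2.02 for the next pair. Of these 4 pairs, 3 joined libraries labelled as different groups, and all 8 libraries were left out. Over 1490 genes called between AII and AII + EGF at 6 h (without the members), on a scale where the AII libraries have a mean of 0 and the AII + EGF libraries a mean of 1, the library labelled AII 6 h replicate 6 stood at 0.873 and the one labelled AII + EGF 6 h replicate 6 at 0.0103. Both were left out too. This left 4 control, 5 AII, 3 EGF and 4 AII + EGF libraries at 6 h and 6, 5, 5 and 6 at 24 h. They held 22.3 ± 3.02 M counts (SD, n = 38), with 28.03 to 29.96 M under EGF at 6 h and 17.8 to 26.9 M in the other groups. Of the HEK293 markers, 9 of 9 had a mean over 1 CPM (a count scaled to the library's total), whereas the hepatocyte, endothelial and leukocyte lists had 0 of 4 genes each over this level. Of the smooth muscle markers 2 of 4 (ACTA2 with 11.3 CPM and MYH11 with 1.29 CPM) and of the kidney tubule markers 2 of 6 (LRP2 with 7.03 CPM and AQP1 with 2.61 CPM) were over it.

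The cells held RNA of 5 of the 8 members in every library, and the receptor was far above the rest. AGTR1 took 0.391 to 1.60% of all counts of a library and ranked between 2 and 13 among all genes. ATP6AP2, the (pro)renin receptor and an accessory subunit of the proton pump V-ATPase, had 61.3 to 106 CPM, LNPEP, an aminopeptidase that binds angiotensin IV, 27.6 to 64.4 CPM, AGTRAP 11.8 to 45.5 CPM and ACE 1.27 to 8.33 CPM. Per kilobase of exon the mean level was 11.2 CPM for AGTRAP, 8.96 CPM for ATP6AP2, 3.14 CPM for LNPEP and 0.450 CPM for ACE, with lengths that unite all annotated transcripts. No such level is given for AGTR1, since the length of the transgene's RNA was not given in the sources used here.

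AGTR2, the type 2 receptor, had 1 count in 1 of 38 libraries. AGT, angiotensinogen, had 13 counts over 9 libraries and at most 2 in a library. MAS1, a receptor for a shorter angiotensin peptide, had 12 counts over 7 libraries, and its highest value was 4 counts in AII 6 h replicate 5 (0.160 CPM). In a library of this depth 3 counts equal 0.100 to 0.169 CPM, so that RNA of these genes below this level could be missed in a library by counting error alone. Renin itself was at 0 counts in 25 of 38 libraries and had a mean of 0.0248 CPM.

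The AGTR1 counts hold the transgene and the cell's own gene together, and they cannot be told apart here. Each AGTR1 level or change in this report is therefore one of their sum. Whether RNA of the own gene changed was not tested. The own gene lies on chromosome 3 (GRCh38.p14, chr3:148697903-148743003). Its nearest annotated neighbours were almost without RNA. The pseudogenes RPL38P1 (1.655 kb away) and HMGB1P30 (81.8 kb) had 0 counts in all 38 libraries. LINC02046 (298 kb) and CPB1 (84.8 kb) had at most 1 count in 2 libraries each. These counts do not show whether the own AGTR1 gene was transcribed. The other members measured in every library lie at chr1:11736136-11750769 (AGTRAP), chr17:63477061-63498373 (ACE), chrX:40580970-40606848 (ATP6AP2) and chr5:96936080-97037513 (LNPEP). LNPEP overlaps the pseudogene RPS20P16, and use of strand in counting is not given in the sources used here.

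AGTR1 was highest under AII + EGF at both times. At 6 h the control libraries had 4397, 4208, 4505 and 3959 CPM, the AII libraries 5784, 6014, 6210, 6100 and 5723 CPM and the EGF libraries 5101, 5451 and 5020 CPM. The AII + EGF libraries had 10068, 9429, 10173 and 10461 CPM. Among the libraries used, no 2 of the 4 groups at 6 h overlapped, and each library under both stimuli lay above each library under 1 stimulus. This depends on the exclusions. Scaled within all 48 libraries, the left-out near-identical libraries labelled control had 6574 and 5456 CPM. Those labelled EGF had 6717, 4173 and 4184 CPM, and AII + EGF replicate 4 had 6737 CPM. The share of all genes that separate in this way was not counted.

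AGTR1 mean levels at 6 h were 4267 ± 239 CPM without stimulus (SD, n = 4), 5966 ± 207 CPM with AII (SD, n = 5), 5190.4 ± 229 CPM with EGF (SD, n = 3) and 10033 ± 436 CPM with AII + EGF (SD, n = 4). Under both stimuli AGTR1 rose 2.35-fold against control, by 1.23 ± 0.17 on the log2 scale (SE; adjusted p = 4.92e-07 by edgeR's quasi-likelihood test). The difference under AII alone was 0.48 ± 0.16 (adjusted p = 0.142) and that under EGF alone 0.28 ± 0.19 (adjusted p = 0.461), neither of which passed the test. With stretches of consecutive sample titles as a covariate, the adjusted p under AII was 0.00224, at a change of 0.47 ± 0.09 that is under the 1.5-fold minimum. The rise under both stimuli was called without any 1 of the 8 libraries compared and under all 15 other settings. Some of these settings only loosen a threshold of the same fit and could not lose the call. With all 48 libraries the rise was 0.85 ± 0.17 (adjusted p = 8.82e-05, edgeR).

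**Figure D1:**
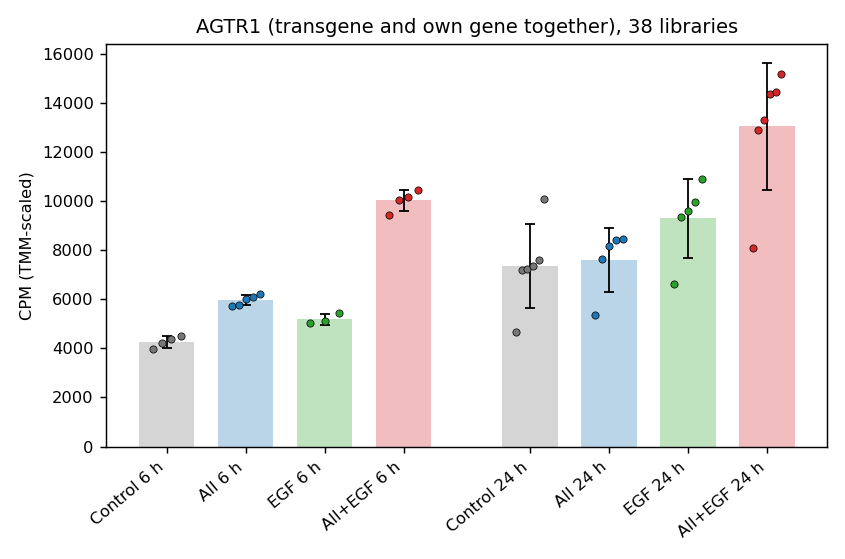
AGTR1 level (y axis, CPM scaled with TMM factors) in the 8 groups (x axis). Points are libraries, bars are group means and error bars are SD. The 4 AII + EGF libraries at 6 h (9429 to 10461 CPM) lie above all other libraries of that time, and at 24 h 1 library of each group lies well below the others.

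At 24 h AGTR1 had a mean of 7357 ± 1718 CPM without stimulus (SD, n = 6), 7608 ± 1304 CPM with AII (SD, n = 5), 9298 ± 1614 CPM with EGF (SD, n = 5) and 13055 ± 2577 CPM with AII + EGF (SD, n = 6). The lowest, median and highest control values were 4663, 7300.4 and 10076 CPM and those under AII + EGF 8080.4, 13844 and 15209 CPM. The AII libraries had 8430 (replicate 1), 7633, 8450 (replicate 3), 8175 and 5351 CPM and the EGF libraries 9978, 9369, 10919, 9614 and 6609 CPM. The groups overlapped, and replicate 6 was the lowest library of each of the 4 groups.

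AGTR1 rose 1.77-fold under AII + EGF at 24 h, by 0.83 ± 0.14 on the log2 scale (SE; adjusted p = 5.28e-05, edgeR). It differed by 0.34 ± 0.15 under EGF (adjusted p = 0.262) and by 0.05 ± 0.15 under AII (adjusted p = 1). With stretches of consecutive sample titles as a covariate, the change under EGF was 0.37 ± 0.07 (adjusted p = 0.000724, edgeR), which is under the 1.5-fold minimum. When only the 2 groups compared entered the fit, the adjusted p of the joint change was 0.0112. The order of the means over both times was control 6 h, EGF 6 h, AII 6 h, control 24 h, AII 24 h, EGF 24 h, AII + EGF 6 h and AII + EGF 24 h. From AII 6 h upwards the libraries of each group overlapped those of the next in this order.

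The sample titles run in stretches of consecutive numbers that each hold libraries of 1 time and, as labelled, all 4 treatments. No label says what a stretch stands for. Among the libraries used, 2 stretches at 6 h and 4 at 24 h hold all 4 treatments. There AGTR1 under AII + EGF was 2.36 and 2.32 times the control at 6 h and 2.06, 1.75, 1.43 and 1.73 times at 24 h. It was above both single stimuli in all 6 of them. The other stretches at 6 h lost treatments through the exclusions. In 1 of those, the libraries with doubtful labels had 7969 CPM (labelled AII) and 6102 CPM (labelled AII + EGF). Within the stretch of the low replicate 6 libraries at 24 h AGTR1 went from 4663 CPM in control through 5351 CPM under AII and 6609 CPM under EGF to 8080.4 CPM under both. In the stretch of control 24 h replicate 5, the highest control (10076 CPM), AGTR1 was lower under AII (8175 CPM) and under EGF (9614 CPM) than in control. In the other stretches at 24 h AGTR1 under EGF was 1.38, 1.35 and 1.42 times the control. Under AII it was 1.11, 1.13 and 1.15 times the control there.

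**Figure D2:**
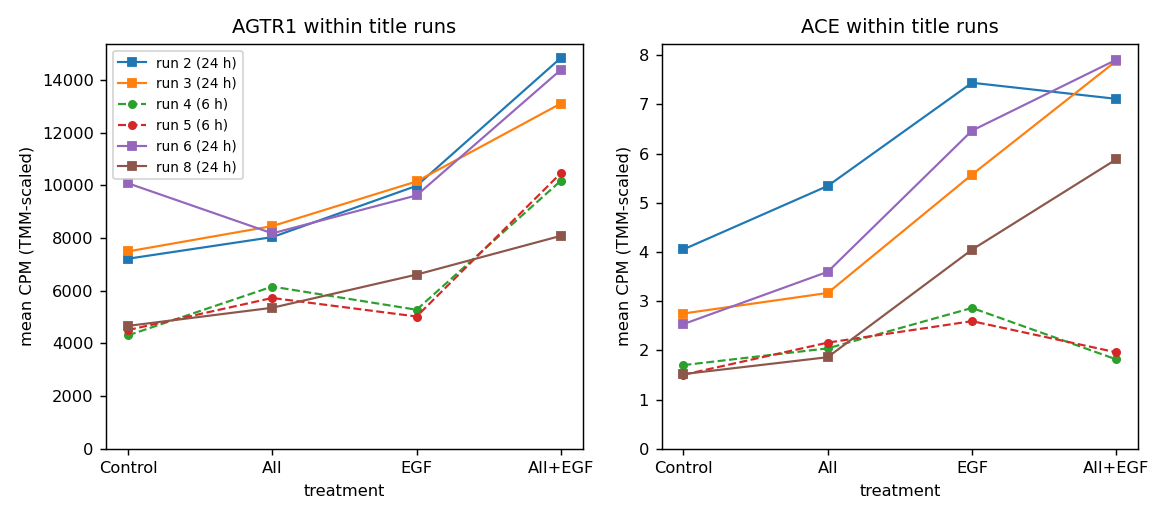
Mean AGTR1 level (left) and ACE level (right; both y axes in CPM scaled with TMM factors) by treatment (x axis) within each stretch of consecutive sample titles that holds controls and all treatments. Only the libraries used are counted. Each line is 1 stretch, dashed at 6 h and solid at 24 h. AGTR1 was highest under AII + EGF in all 6 stretches; the joint level was 1.43 to 2.36 times the control. Each stretch is called a run in the legend, and run 8 (replicate 6 at 24 h) lies below the other 24 h runs.

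Controls also differed between the times. AGTR1 was 1.72-fold higher in control at 24 h than at 6 h (log2 difference 0.79 ± 0.16 SE, adjusted p = 0.000289, edgeR). The libraries used did not overlap, but the left-out libraries labelled control 6 h had 6574 and 5456 CPM, within the range of the 24 h controls. ACE was higher by 0.93 ± 0.25 (adjusted p = 0.00428) at a level below the 5 CPM minimum, ATP6AP2 differed by -0.21 ± 0.10 (adjusted p = 0.0877), LNPEP by 0.11 ± 0.15 (adjusted p = 0.599) and AGTRAP by 0.02 ± 0.14 (adjusted p = 0.919). Thus 1 of 5 tested members was called, where 6.72% of all 19626 tested genes were. Time and stretch of titles cannot be told apart in this comparison, since each stretch holds 1 time. With all 48 libraries AGTR1 differed by 0.62 ± 0.17 (adjusted p = 0.00972) and ACE by 0.37 ± 0.25 (adjusted p = 0.298).

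AGTRAP, the AT1R binding protein, was lower under AII + EGF at 6 h. Its controls had 32.003, 28.8, 26.8 and 32.3 CPM, and the AII + EGF libraries 11.8, 14.4, 12.8 and 16.3 CPM. The AII libraries had 19.1, 18.5, 24.04, 23.05 and 26.7 CPM and the EGF libraries 22.2, 24.1 and 26.8 CPM. Among the libraries used, each AII + EGF library lay below each library of the other groups of this time. The AII and EGF libraries lay below every control, though narrowly (26.81 CPM in the lowest control, 26.78 CPM in the highest EGF library). Left-out libraries labelled control had 24.6 and 28.3 CPM, those labelled EGF 17.6, 31.7 and 31.8 CPM and AII + EGF replicate 4 had 17.4 CPM, so that both separations depend on the exclusions. The share of all genes that separate in this way was not counted.

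AGTRAP fell by 1.12 ± 0.16 on the log2 scale (SE; adjusted p = 8.29e-07, edgeR), which is 2.17-fold, from 29.98 ± 2.65 CPM in control (SD, n = 4) to 13.8 ± 1.95 CPM under both stimuli (SD, n = 4). The differences under AII (-0.43 ± 0.15, adjusted p = 0.161) and under EGF (-0.30 ± 0.17, adjusted p = 0.374) were below the threshold. With all 48 libraries the joint change was -0.85 ± 0.15 (adjusted p = 2.46e-05). Within the 2 complete stretches at 6 h AGTRAP under both stimuli was 0.420 and 0.606 times the control. In the second of these, AGTRAP had 26.8 CPM in control, 26.7 CPM under AII and 26.8 CPM under EGF, so that the lower values under 1 stimulus came from the other libraries.

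At 24 h AGTRAP did not pass the test under any stimulus. The means were 30.5 ± 8.88 CPM without stimulus (SD, n = 6), 31.6 ± 2.74 CPM with AII (SD, n = 5), 28.9 ± 3.89 CPM with EGF (SD, n = 5) and 31.3 ± 3.55 CPM with AII + EGF (SD, n = 6). The controls were the most spread group, from 19.3 to 45.5 CPM with a median of 30.7 CPM, and held the range of the other 3 groups. Under AII + EGF the difference was 0.04 ± 0.13 (adjusted p = 0.876).

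The AGTRAP response to AII + EGF itself differed between the times. It was higher at 24 h than at 6 h by 1.16 ± 0.21 on the log2 scale (SE; adjusted p = 4.76e-05, edgeR), and it was called in each fit without 1 library and under all 15 other settings. Settings that only loosen a threshold of the same fit could not lose this call. AGTR1 showed no such call (-0.41 ± 0.22, adjusted p = 0.188). ACE differed by 0.79 ± 0.34 (adjusted p = 0.0885), and with all 48 libraries by 1.45 ± 0.36 (adjusted p = 0.00198). This made 1 of 5 members called, where 11.6% of all genes were. The AII response differed between times in 0 of 5 members (0.138% of all genes, edgeR; AGTRAP alone had an unadjusted p under 0.05, and DESeq2 called 0), and so did the EGF response (1.03% of all genes; 0 members at an unadjusted p under 0.05 and 0 by DESeq2).

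For AGTRAP, as the member that fell, the 250 bases before its RefSeq start are shown (GRCh38.p14, plus strand, chr1:11735886-11736135), with GGGCGG, the core letters of the GC box, in capitals.

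AGTRAP: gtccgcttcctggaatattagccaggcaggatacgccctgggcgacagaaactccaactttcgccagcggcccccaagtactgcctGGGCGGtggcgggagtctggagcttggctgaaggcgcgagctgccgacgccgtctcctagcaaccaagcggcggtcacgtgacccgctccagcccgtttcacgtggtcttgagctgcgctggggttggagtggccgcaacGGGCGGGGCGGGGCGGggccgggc

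The AGTRAP window held 68.4% G and C and 4 matches to GGGCGG over both strands, of which 3 overlap by a base at their ends near the start. Of 35116 RefSeq promoter windows of this length, 42.6% held this motif. None of GCGGGGGCG and GCGTGGGCG (EGR factors, in 4.72% and 0.720% of windows), TGANTCA (AP-1, 6.57%), CCGGAAG (ETS factors, 8.52%) or the CArG box of SRF (1.16%) had a match, which says only that these letters are not in this window.

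ACE, the enzyme that makes AII from its precursor and also breaks down bradykinin, was low but rose under EGF at 24 h. The control values at 24 h were 1.52, 2.78 and 4.38 CPM (lowest, median, highest), and those under AII + EGF 5.88, 7.62 and 8.33 CPM. The EGF libraries had 7.44, 5.95, 5.19, 6.47 and 4.05 CPM and the AII libraries 5.26, 5.43, 3.17, 3.60 and 1.86 CPM. Each AII + EGF library lay above each control and each AII library, whereas 1 EGF library lay below the highest control.

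ACE rose by 1.31 ± 0.20 on the log2 scale under AII + EGF (SE; adjusted p = 1.1e-05, edgeR), which is 2.48-fold, from 2.94 ± 1.01 CPM (SD, n = 6) to 7.30 ± 0.946 CPM (SD, n = 6). Under EGF it rose 1.98-fold, by 0.98 ± 0.21 (adjusted p = 0.00676), to 5.82 ± 1.28 CPM (SD, n = 5), not far above the 5 CPM minimum, and under AII it differed by 0.39 ± 0.21 (adjusted p = 1) at 3.86 ± 1.496 CPM (SD, n = 5). The call under EGF was lost in 8 of 11 fits without 1 library, with adjusted p up to 0.0385 (without EGF 24 h replicate 1). It was also lost with all 48 libraries (0.92 ± 0.25, adjusted p = 0.0858), while its size ranged from 0.85 to 1.13 over the fits without 1 library. Within the 4 stretches at 24 h ACE under EGF was 1.84, 2.03, 2.55 and 2.67 times the control and under both stimuli 1.76, 2.87, 3.12 and 3.87 times.

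At 6 h ACE had 1.81, 1.59, 1.504 and 1.27 CPM in control, 1.95, 1.77, 2.17, 1.92 and 2.16 CPM under AII, 2.92, 2.81 and 2.59 CPM under EGF and 3.07, 1.98, 1.82 and 1.9605 CPM under AII + EGF. All EGF libraries lay above all controls, and in the AII + EGF group 1 library stood apart from the other 3. No difference from control passed the test: 0.37 ± 0.27 under AII (adjusted p = 0.631), 0.85 ± 0.29 under EGF (adjusted p = 0.0713) and 0.52 ± 0.28 under both (adjusted p = 0.155). With all 48 libraries these were -0.11, 0.11 and -0.14 with adjusted p of 0.874, 0.804 and 0.723, and the left-out library labelled control 6 h replicate 1 had 4.49 CPM. All ACE levels at 6 h were below the 5 CPM minimum for a call.

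**Figure D3:**
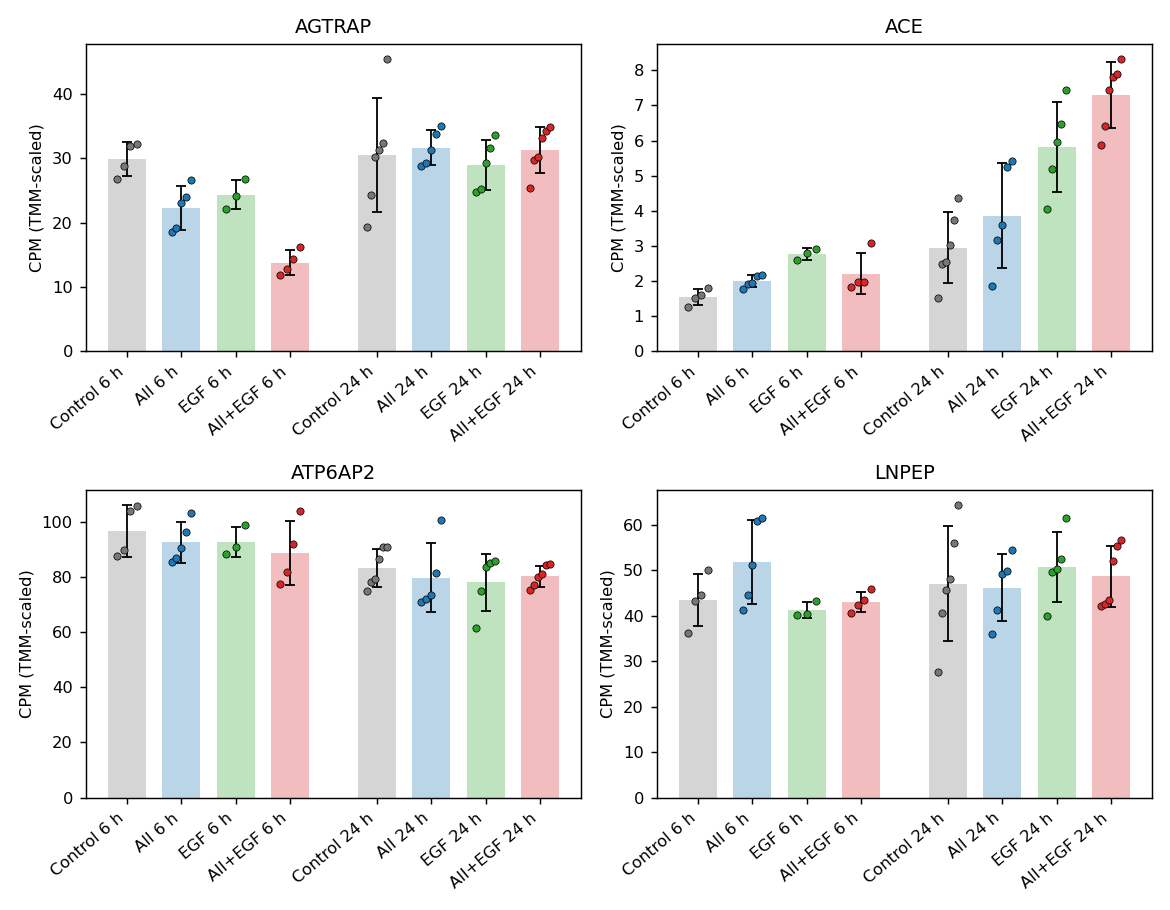
Levels of AGTRAP, ACE, ATP6AP2 and LNPEP (y axes, CPM scaled with TMM factors) in the 8 groups (x axes). Points are libraries, bars are group means and error bars are SD. AGTRAP is lowest under AII + EGF at 6 h (11.8 to 16.3 CPM), and ACE is highest under AII + EGF at 24 h (5.88 to 8.33 CPM).

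ATP6AP2 passed the test in none of the comparisons. Its group means ran from 88.6 to 96.6 CPM at 6 h and from 77.9 to 83.3 CPM at 24 h, and the libraries of each treated group overlapped the control of their time. Under AII + EGF it differed from control by -0.12 ± 0.11 on the log2 scale at 6 h (SE; adjusted p = 0.411, edgeR) and by -0.05 ± 0.09 at 24 h (adjusted p = 0.722). LNPEP had group means from 41.2 to 51.8 CPM at 6 h and from 46.2 to 50.7 CPM at 24 h. Its libraries overlapped in the same way, and its changes under both stimuli were -0.01 ± 0.17 at 6 h (adjusted p = 0.958) and 0.05 ± 0.14 at 24 h (adjusted p = 0.851). Under AII at 6 h LNPEP differed by 0.25 ± 0.16 and did not pass the test, with libraries at 61.4, 60.8 and 51.2 CPM above the highest control (50.1 CPM). The 2 highest belong to a stretch of titles without a control among the libraries used. In a bulk sample fewer cells with a transcript and less RNA per cell cannot be told apart, which holds for all values given here.

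Counted over the 5 tested members, calls were made at 6 h in 0 members under AII (0.469% of all tested genes), 0 under EGF (1.94%) and 2 with both stimuli (12%). At 24 h they were made in 0 members under AII (0% of all genes), 1 under EGF (0.245%) and 2 with both stimuli (2.89%). At an unadjusted p under 0.05 edgeR gave 2 members for AII at 6 h, 1 for EGF at 6 h and 0 for AII at 24 h, and DESeq2 called 0 members in each of these 3. For AII at 24 h, 343 of all genes had an unadjusted p under 0.05, and DESeq2 called 0 genes. DESeq2 called AGTR1 and AGTRAP for AII + EGF at 6 h, ACE for EGF at 24 h and AGTR1 and ACE for AII + EGF at 24 h, the same members as edgeR.

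**Figure D4:**
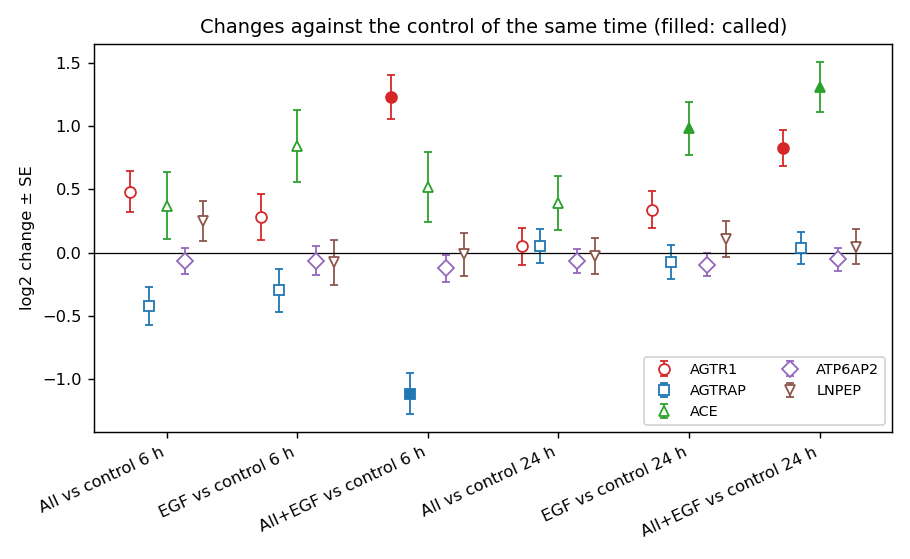
Difference from the control of the same time (y axis, log2 scale, points with SE) for the 5 tested members in the 6 comparisons with control (x axis). Filled symbols passed the call. AGTR1 (1.23) and AGTRAP (-1.12) moved in opposite directions under AII + EGF at 6 h; at 24 h AGTR1 (0.83) and ACE (1.31) were called and AGTRAP stood at 0.04.

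The levels under AII + EGF were next set against those under each stimulus alone. Against EGF at 6 h AGTR1 was 1.93-fold higher (0.95 ± 0.19 on the log2 scale, adjusted p = 0.000645, edgeR) and AGTRAP 1.76-fold lower (-0.82 ± 0.17, adjusted p = 0.00116), so that 2 of 5 members were called, where 2.92% of all genes were. AGTRAP lost this call without EGF 6 h replicate 5 (adjusted p = 0.0146). Both members lost it with all 48 libraries and the near-identical EGF 6 h pair merged (adjusted p = 0.0361 for AGTR1 and 0.0436 for AGTRAP) and when only the near-identical pairs were left out (0.0267 and 0.0793). Against AII at 6 h AGTR1 was 1.68-fold higher (0.75 ± 0.16, adjusted p = 0.000507) and AGTRAP 1.62-fold lower (-0.69 ± 0.16, adjusted p = 0.000786), again 2 of 5 members, where 7.6% of all genes were called. With all 48 libraries the differences from AII were 0.48 ± 0.17 for AGTR1 (adjusted p = 0.0616) and -0.42 ± 0.15 for AGTRAP (adjusted p = 0.0777), and neither was called. Neither was called either when only the near-identical pairs were left out (adjusted p = 0.0245 and 0.0796). The library labelled AII 6 h replicate 6 had 7969 CPM of AGTR1 and 16.5 CPM of AGTRAP, and the one labelled AII + EGF 6 h replicate 6 had 6102 CPM and 23.4 CPM.

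At 24 h AGTR1 was 1.72-fold higher under AII + EGF than under AII (0.78 ± 0.15 on the log2 scale, adjusted p = 0.000576, edgeR) and ACE 1.89-fold higher (0.92 ± 0.21, adjusted p = 0.00319), which made 2 of 5 members, where 1.45% of all genes were called. ACE lost this call without AII 24 h replicate 5 (adjusted p = 0.0103) and without AII 24 h replicate 6 (0.74 ± 0.20, adjusted p = 0.0175). With only these 2 groups in the fit both calls were lost (adjusted p = 0.0264 for AGTR1 and 0.0288 for ACE). Against EGF at 24 h 0 of 5 members were called (0.0917% of all genes, edgeR; 1 member at an unadjusted p under 0.05 and 0 by DESeq2). There AGTR1 differed by 0.49 ± 0.15 (adjusted p = 0.136) and ACE by 0.33 ± 0.20 (adjusted p = 0.594). Over the 15 other settings this AGTR1 difference was 0.46 to 0.57, and it was called in none. Its lowest adjusted p among these edgeR and DESeq2 fits was 0.000217. These comparisons share the AII + EGF libraries with those against control.

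Whether the joint change exceeded the sum of the single changes on the log2 scale was tested as an interaction. At 6 h it was 0.47 ± 0.25 for AGTR1 (SE; adjusted p = 0.55, edgeR), -0.39 ± 0.23 for AGTRAP (adjusted p = 0.62) and -0.70 ± 0.39 for ACE (adjusted p = 0.581), with 0 of 5 members called (0.229% of all genes; 0 members at an unadjusted p under 0.05 and 0 by DESeq2). At 24 h it was 0.44 ± 0.21 for AGTR1, 0.06 ± 0.19 for AGTRAP and -0.06 ± 0.29 for ACE, each with an adjusted p of 0.998, and 0 of 5 members were called (0% of all genes, 660 genes and 1 member at an unadjusted p under 0.05, 0 genes by DESeq2). The AGTR1 interaction at 6 h depended on the setting: over the 15 other settings it was 0.27 to 0.57 and called in none. Its lowest adjusted p among these edgeR and DESeq2 fits was 0.0189.

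The other genes of the pathway were taken from 5 lists. In none of them was a gene called under AII or EGF alone or under AII + EGF at 24 h against control, and all calls against control fell under AII + EGF at 6 h. Of 25 tested genes of AT1R coupling and trafficking, 2 rose and 4 fell there, with a median log2 change of 0.03 against -0.03 over all genes. These calls are 24% of the list, where 12% of all tested genes were called. Of the 19626 tested genes, 11763 had a mean over 5 CPM. Genes below 5 CPM in the higher group could not be called, so the share among expressed genes is higher than 12%. The same limit holds for the shares of the other lists, and no excess over expressed genes was tested. ARHGEF1, a RhoA exchange factor used by G proteins, fell by 1.12 ± 0.10 on the log2 scale (adjusted p = 3.31e-11, edgeR), from 42.4 ± 4.96 CPM (SD, n = 4) to 19.5 ± 1.80 CPM (SD, n = 4). ARAP1, a GTPase-activating protein linked to membrane traffic, fell from 75.5 ± 8.97 to 42.8 ± 2.94 CPM (adjusted p = 4.49e-09) and PLCB3, a phospholipase C downstream of Gq, from 60.8 ± 6.30 to 39.7 ± 3.51 CPM (adjusted p = 2.36e-07). GNAQ, the alpha subunit of Gq itself, rose from 81.9 ± 5.69 to 123 ± 10.9 CPM (adjusted p = 1.47e-05), at 1.502-fold just past the fold minimum. The remaining calls were PLCB2, another phospholipase C, which fell by 1.03, and GRK3, a receptor kinase, which rose by 0.61.

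Of 15 tested enzymes that cut angiotensin peptides or their precursors, 1 rose and 3 fell under AII + EGF at 6 h, with a median log2 change of -0.29 against -0.03 over all genes. These calls are 26.7% of the list, beside 12% of all genes. ENPEP, aminopeptidase A, which shortens AII, rose from 34.02 ± 2.67 to 53.3 ± 2.21 CPM (SD, n = 4 each; log2 change 0.65 ± 0.09, adjusted p = 2.09e-07, edgeR). CTSA, a lysosomal carboxypeptidase, fell from 56.0 ± 6.47 to 33.05 ± 2.17 CPM (log2 change -0.76 ± 0.12, adjusted p = 3.73e-06). ANPEP, aminopeptidase N, fell from 5.98 ± 0.867 to 2.60 ± 0.393 CPM (adjusted p = 2.55e-05), and CTSD, cathepsin D, by 0.66 ± 0.18 on the log2 scale (adjusted p = 0.00463). In control ANPEP was higher at 24 h than at 6 h (13.1 ± 2.71 CPM, SD, n = 6; log2 difference 1.13 ± 0.18, adjusted p = 1.47e-05). The same held for KLK1, tissue kallikrein, with 2.16 ± 0.444 CPM at 6 h (SD, n = 4) and 6.56 ± 2.37 CPM at 24 h (SD, n = 6; adjusted p = 2.08e-05).

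Among the 11 M1 aminopeptidases, the family of LNPEP, 1 rose (ENPEP) and 3 fell (RNPEPL1, ERAP2 and ANPEP) under AII + EGF at 6 h, and LNPEP was not among them. The calls are 36.4% of the list, beside 12% of all genes, and the median log2 change was -0.54 against -0.03 over all genes. ERAP2, which trims peptides for antigen presentation, fell from 11.7 ± 1.09 to 5.71 ± 0.717 CPM (SD, n = 4 each; adjusted p = 1.75e-07, edgeR) and RNPEPL1 from 26.1 ± 2.92 to 11.5 ± 2.48 CPM (adjusted p = 3.56e-07). Of 10 genes of the vesicles in which LNPEP travels with the glucose transporter GLUT4, 0 rose and 2 fell, which is 20% beside 12% of all genes, with a median log2 change of -0.12 against -0.03 over all genes. These were VAMP2, a vesicle fusion protein (34.8 ± 4.36 to 22.97 ± 2.31 CPM, adjusted p = 4.98e-05), and ASPSCR1, which holds such vesicles back in the cell (24.2 ± 4.59 to 15.8 ± 1.37 CPM, adjusted p = 0.00407). LRP1, an endocytic receptor of the same list, was higher in control at 24 h (86.2 ± 27.8 CPM, SD, n = 6) than at 6 h (34.3 ± 6.15 CPM, SD, n = 4; adjusted p = 0.000243).

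Of 21 tested V-ATPase subunits, the pump that ATP6AP2 belongs to, 0 were called in either direction in any comparison with control (median log2 change -0.01 under AII + EGF at 6 h). Of all tested genes, 12% were called under AII + EGF at 6 h and 0 to 2.89% in the other comparisons with control. Between the controls, the membrane subunits ATP6V0A2 (59.1 ± 4.59 CPM at 6 h, SD, n = 4, and 37.3 ± 5.73 CPM at 24 h, SD, n = 6; adjusted p = 9.32e-07, edgeR) and ATP6V0D1 (41.1 ± 9.20 and 25.8 ± 6.86 CPM, adjusted p = 0.000557) were lower at 24 h. The response to AII + EGF was lower at 24 h than at 6 h for ATP6V0A1 (log2 difference -0.60 ± 0.11, adjusted p = 9.18e-05) and higher for ATP6V0E2 (0.79 ± 0.19, adjusted p = 0.00204). The calls between the controls are 9.52% of the list, beside 6.72% of all genes. Those for the difference of responses are also 9.52%, beside 11.6% of all genes.

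Of the marker sums given here, only that of the HEK293 markers at 6 h did not overlap between control and AII + EGF. The summed level of the 9 HEK293 markers, most of it the neurofilament NEFM, was 3314 to 5690 CPM in control and 8389 to 10732 CPM under AII + EGF at 6 h, and 3424 to 6635 CPM and 5471 to 10846 CPM at 24 h. The summed level of 4 smooth muscle markers was 7.40 to 11.9 CPM in control and 6.04 to 8.44 CPM under AII + EGF at 6 h, and that of 6 kidney tubule markers, of which UMOD was at 0 in all 38 libraries, 4.89 to 6.56 and 4.33 to 5.89 CPM. At 24 h the smooth muscle sum was 10.3 to 31.7 CPM in control and 10.3 to 21.1 CPM under AII + EGF, and the kidney tubule sum 7.39 to 15.3 and 11.3 to 18.96 CPM. Their part in the results was not tested.

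Over the 38 libraries the levels of 11763 genes with a mean above 5 CPM were compared with that of AGTR1 on the log2 scale. The genes whose pattern was most like AGTR1 were GAB2, a docking protein of receptor kinases (Pearson r = 0.951), HPSE, heparanase (r = 0.951), AC005224.3 (r = 0.947), CD24, a surface glycoprotein (r = 0.947), and ARRDC4, an arrestin-domain protein (r = 0.946). Over the 8 group means r was 0.982, 0.983, 0.977, 0.971 and 0.956 in this order. GAB2, for example, had 9.58, 15.3, 15.4 and 26.4 CPM at 6 h (control, AII, EGF, AII + EGF) and 19.2, 20.7, 25.5 and 34.5 CPM at 24 h.

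The most opposite patterns to AGTR1 were those of N6AMT1, a methyltransferase (r = -0.914), RBM4B, an RNA-binding protein (r = -0.913), ACTR5, a chromatin remodelling subunit (r = -0.909), NCDN, neurochondrin (r = -0.903), and PCYT2, an enzyme of phosphatidylethanolamine synthesis (r = -0.899). Among the members r with AGTR1 was 0.25 for LNPEP, -0.12 for AGTRAP and -0.46 for ATP6AP2. These are descriptions over libraries that share groups, times and title stretches.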

How the data were processed

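Poly(A) RNA libraries of 1 AT1R-expressing HEK293 clone were sequenced as read pairs by the authors, mapped to hg38 with HISAT2 2.1.0 and assigned to Ensembl genes with featureCounts. The authors deposited whole-number counts without normalisation in 1 table. Handling of strand and of reads with several positions is not given in the sources used here. The table held 0 columns outside the 48 libraries and 0 rows without a gene.

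Groups were read from the labels, with 4, 5, 3, 4, 6, 5, 5 and 6 libraries used (control, AII, EGF and AII + EGF at 6 h, then at 24 h). No label says whether libraries of a group came from separate cultures, so p-values measure only the spread between these libraries, which may be technical. Replicate numbers follow the order of deposition. The labels carry no replicate numbers that pair libraries across groups, and a fit with the title stretches as a covariate was run as an alternative.

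The members and gene lists were chosen with earlier results of these data known. Near-identical libraries were sought by chi-square over genes with at least 100 counts in a pair. R 4.3.3 with edgeR 4.0.16 was used for the tests. Genes were filtered by group with filterByExpr, which kept 19626, scaled with TMM and fitted in 1 quasi-likelihood model of the 8 groups and 38 libraries with no covariate. A call needed an adjusted p (Benjamini-Hochberg, over all tested genes) under 0.01, a 1.5-fold change or more and over 5 CPM on average in the higher group. Altogether 16 comparisons were made: each stimulus against control, AII + EGF against each stimulus, control at 24 h against 6 h, the interactions and the differences of responses between times. CPM was scaled with TMM factors, and log2 CPM for correlations used a prior count of 2. Depth gives 3 counts as 0.100 to 0.169 CPM. The steps were tested on simulated data.

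Named genes were the 8 members in every comparison, up to 4 called genes of each list with the smallest adjusted p, the 5 highest and 5 lowest correlations with AGTR1 and the 2 nearest genes on each side of AGTR1. Genes named to complete a count of calls (PLCB2, GRK3, CTSD), and NEFM, UMOD, renin, ACTA2, MYH11, LRP2 and AQP1 from the marker lists, were added after their values were seen, and some named genes are given in further comparisons. Positions and promoter windows came from RefSeq on GRCh38.p14, where 7 of 8 members had a window. The window listed for ACE starts 7.79 kb inside the gene and was not used. Exon lengths came from GENCODE on GRCh37, without coordinates.

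Alternatives were DESeq2 1.42.0, RLE factors, library totals without factors, AGTR1 left out of the totals and factors, no filter, the study's filter on low counts, title stretches as a covariate, only the groups of a comparison, other thresholds, all 48 libraries with or without merging the near-identical EGF 6 h pair, leaving out only the pairs or only the doubtful labels, and leaving out each library.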

Additional observations from a re-analysis of the deposited data

Results flagged for a closer look

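Among 35 sets of values (5 members in the groups with 4 or more libraries), 3 libraries stood far from the rest of their group, where chance gives about 1 in 20 sets. AGTR1 was 5351 CPM in AII 24 h replicate 6, against 7633 to 8450 CPM in the other 4 libraries. AGTR1 was 8080.4 CPM in AII + EGF 24 h replicate 6, against 12896 to 15209 CPM in the other 5. Both belong to the same stretch of sample titles, in which AGTR1 was also lowest in control (4663 CPM) and under EGF (6609 CPM). ACE was 3.07 CPM in AII + EGF 6 h replicate 1, against 1.82 to 1.98 CPM in the other 3 libraries.

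The response of AGTRAP to AII + EGF differed between the times in a test of the difference itself: it was higher at 24 h by 1.16 on the log2 scale (edgeR, adjusted p = 4.76e-05).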

How the results depend on the processing

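Over the 16 comparisons, the number of members called stayed the same in most other settings, no direction of a called member was reversed, and DESeq2, RLE factors, leaving AGTR1 out of the totals, no filter, the study's filter, an adjusted p under 0.05 and no fold minimum left every number within 1.5 times of the main one. For EGF against control at 24 h the number of called members was 0 in place of 1 with all 48 libraries, with the EGF 6 h pair merged, without the near-identical pairs only, without the doubtful labels only, with library totals and with only the 2 groups in the fit, and it ranged from 0 to 1 when 1 library was left out. For AII + EGF against control at 24 h it was 1 (ACE) with only the 2 groups. For AII + EGF against EGF at 6 h it was 0 with the pair merged and without the pairs only, and 1 to 2 when 1 library was left out. For AII + EGF against AII it was 0 at 6 h with all 48 libraries, with the pair merged and without the pairs only, and at 24 h 0 with only the 2 groups and 1 to 2 when 1 library was left out. For control at 24 h against 6 h it was 0 with the pair merged and 2 without the abundance minimum. For the difference of the AII + EGF response between times it was 2 (AGTRAP and ACE) with all 48 libraries, with the pair merged, without the doubtful labels only and with title stretch as a covariate. Where no cause is evident from fewer samples or another threshold, the cause was not tested. Title stretch as a covariate was not run for the controls between times, since each stretch holds 1 time. Depth limits AGTR2, AGT and MAS1, which could not be tested, and ACE, with 28 to 189 counts a library.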
